A study of Homo sapiens with 16 samples.

Results

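The chaperone genes examined here are the cytosolic and mitochondrial protein-folding families: HSP70 and HSP110, HSP90, the J-domain proteins DNAJA, DNAJB and DNAJC, the small heat shock proteins, HSP60 with HSP10, the CCT ring and the BAG proteins, together with the heat shock factor HSF1. Members were taken by gene symbol, as protein-coding genes whose symbols begin with the family stems, with TCP1, TRAP1 and HSF1 added and 5 symbols set aside (HSPA5, DNAJB9, DNAJB11, DNAJC3 and HSPBAP1). The rule found 69 members among 11282 genes, and 64 of them passed the filter on low values. HSPBP1, an exchange factor for HSP70 that is no small heat shock protein, entered through its first letters and is described with the BAG proteins. Several members (HSPA13, DNAJC10, DNAJC1, DNAJC25, DNAJB12 and DNAJB14) are known as proteins of the endoplasmic reticulum, so the family name does not cover every member.

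RNA was measured in HCC70, an established human basal-like breast cancer line, by counting reads at transcript 3′ ends. Cells were infected with short hairpin RNA (shRNA) constructs. The targets, all transcription factors, were KLF5, RBPJ, NFIB and FOXA1, and the control constructs were plko, shRFP, shLACZ and shLUC. The series title asks about regulators of cell heterogeneity and of symmetric against asymmetric division in basal-like breast cancer. Each of the 8 constructs had 2 libraries, and the 6 libraries of shRFP, shLACZ and shLUC, named for genes that human cells lack, are called hairpin controls. Construct plko, named for the vector backbone, was kept apart as a group of its own. All groups were infected cells of 1 line, with no uninfected sample among them, and the labels give no time after infection. In every group each library carries its own construct number in the labels, so the spread within a target includes the difference between hairpins. The labels do not say that libraries came from separate cultures, so p-values measure the spread between these samples, part of which may be technical.

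Chaperones bind unfolded or partly folded proteins and release them in cycles. HSP70 proteins are loaded by J-domain proteins and reset by nucleotide exchange factors such as HSP110, several BAG proteins and HSPBP1. HSP70 proteins also pass some clients on to HSP90. Small heat shock proteins hold aggregating proteins without using ATP, and the CCT ring folds actin and tubulin. Mitochondria have their own set, with HSPA9 as HSP70, HSPD1 and HSPE1 as HSP60 and HSP10, and TRAP1 as HSP90. HSF1 is the factor that binds heat shock elements, repeats of GAA in alternating orientation, ahead of many chaperone genes under proteotoxic stress.

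The 250 bases before the transcript start were searched for adjoining pairs of inverted GAA units (GAANNTTC or TTCNNGAA; each reads the same on both strands) and for runs of 3 units (GAANNTTCNNGAA or its reverse complement TTCNNGAANNTTC, both of which contain pairs). Sequences are those of the RefSeq promoter table on GRCh38.p14, in which 62 of the 69 members were found. With any listed start counted, a pair was present in 21 members (33.87%), against 13.96% of the 27305 genes in the table, and a run of 3 units in 5 members (8.065%), against 0.5567%. These shares describe letters and not binding. Of the 7 members called lower with KLF5 hairpins, 4 hold a pair and are shown first, while CCT8, DNAJC8 and BAG5 hold none. Of the 53 members with a promoter that were called lower with neither KLF5 hairpins nor plko, 17 hold a pair (32.08%). These 53 include CCT6B, DNAJB5, DNAJB7 and DNAJC27, which were not tested, and of which CCT6B and DNAJB7 hold a pair. A run of 3 units is in 3 of the 7 (42.86%) and in 2 of the 53 (3.774%). The part of these motifs in the levels was not tested. HSPA1A and HSPA1B are shown because their reads can be confused. Capitals mark the matched units, each sequence runs 5′ to 3′ on the gene's own strand, and, where the table holds several starts, the one with the most pairs is given. DNAJB1 is at chr19:14518398-14518647 on the minus strand, HSP90AB1 at chr6:44247693-44247942 on the plus strand and HSPA8 at chr11:123062137-123062386 on the minus strand. HSP90AA1 is at chr14:102087045-102087294 on the minus strand, and HSPA1A (chr6:31815293-31815542) and HSPA1B (chr6:31827488-31827737) are on the plus strand.
DNAJB1: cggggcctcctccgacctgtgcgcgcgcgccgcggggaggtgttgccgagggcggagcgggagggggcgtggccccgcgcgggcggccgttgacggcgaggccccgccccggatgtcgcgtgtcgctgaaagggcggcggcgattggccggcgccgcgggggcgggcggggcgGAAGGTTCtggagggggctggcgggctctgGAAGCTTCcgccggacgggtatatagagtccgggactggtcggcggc
HSP90AB1: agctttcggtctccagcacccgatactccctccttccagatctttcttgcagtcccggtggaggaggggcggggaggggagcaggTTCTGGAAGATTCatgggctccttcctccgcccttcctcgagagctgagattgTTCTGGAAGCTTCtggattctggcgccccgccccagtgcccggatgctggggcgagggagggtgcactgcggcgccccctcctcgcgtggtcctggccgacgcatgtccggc
HSPA8: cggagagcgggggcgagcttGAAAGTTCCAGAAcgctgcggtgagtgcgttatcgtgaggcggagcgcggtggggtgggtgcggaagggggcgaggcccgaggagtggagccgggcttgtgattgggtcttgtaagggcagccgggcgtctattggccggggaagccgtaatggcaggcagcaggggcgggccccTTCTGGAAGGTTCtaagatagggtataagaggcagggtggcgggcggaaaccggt
HSP90AA1: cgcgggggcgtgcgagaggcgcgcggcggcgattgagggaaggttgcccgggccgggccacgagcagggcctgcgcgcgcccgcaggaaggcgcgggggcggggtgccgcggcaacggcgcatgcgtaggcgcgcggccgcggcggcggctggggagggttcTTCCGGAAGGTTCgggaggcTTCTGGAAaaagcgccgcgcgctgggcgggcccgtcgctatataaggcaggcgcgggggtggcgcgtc
HSPA1A: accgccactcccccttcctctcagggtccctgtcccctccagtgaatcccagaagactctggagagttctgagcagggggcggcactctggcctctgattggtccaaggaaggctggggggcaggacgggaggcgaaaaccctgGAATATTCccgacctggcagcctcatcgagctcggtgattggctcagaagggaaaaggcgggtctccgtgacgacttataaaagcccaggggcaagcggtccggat
HSPA1B: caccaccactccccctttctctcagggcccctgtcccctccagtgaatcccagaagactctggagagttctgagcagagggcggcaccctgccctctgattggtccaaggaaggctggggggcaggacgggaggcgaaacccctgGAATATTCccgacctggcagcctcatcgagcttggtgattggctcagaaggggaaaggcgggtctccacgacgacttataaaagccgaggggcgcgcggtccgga
Printed stretches held 4 pairs in HSP90AB1 and in HSPA8, 3 in HSP90AA1, 2 in DNAJB1, and 1 each in HSPA1A and HSPA1B. Over those 250 bases HSPA1A and HSPA1B were 93.63% identical.

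Library depth was lowest in plko 1 (375713 reads) and highest in RBPJ 1 (3090666 reads), and the median member had 25 reads in plko 1 and 243 in RBPJ 1. Members together took 1.10% (plko 1) to 1.94% (KLF5 2) of the reads of a library. Relative to the hairpin control mean, KLF5 RNA was at 63.4% and 37.8% in the KLF5 libraries and at 71.6% and 97.3% in the plko libraries. It was lower in KLF5 libraries than in hairpin controls (log2 fold change -1.01 ± 0.21, adjusted p = 0.00249), and KLF5 against plko did not pass for it (-0.76 ± 0.26, adjusted p = 0.101). NFIB RNA was at 71.1% and 12.6% in the NFIB libraries and FOXA1 RNA at 24.4% and 58.6% in the FOXA1 libraries. RBPJ RNA was at 17.7% in RBPJ 2, whereas the library labelled RBPJ 1, at 89.5%, lay within the hairpin control range. The basal keratin KRT5 was at 2085 to 4517 in all 16 libraries and the estrogen receptor ESR1 at 1.37 to 10.7. Markers of the same list were not alike. Among basal-like markers KRT17 was at 320 to 2440, KRT14 at 17.7 to 102.5 and TP63 at 0.68 to 4.78. The luminal marker XBP1 was at 117 to 184. Of 9 basal-like markers tested, SOX9 was higher with KLF5 hairpins (0.73 ± 0.22, adjusted p = 0.0343) and the keratin KRT6A lower (-2.77 ± 0.68, adjusted p = 0.00898), at 105 and 73.5 in KLF5, 64.0 and 276 in plko and 329 to 1103 in hairpin controls. Of 4 luminal markers tested, GATA3 was higher (0.93 ± 0.24, adjusted p = 0.0134), at 289 and 242 in KLF5, 212 and 216 in plko and at most 173 in hairpin controls. Of 11 fibroblast and endothelial markers 5 were in the table, and their summed value was 46.2 to 50.2 in KLF5, 49.2 to 51.0 in NFIB, 13.2 to 24.2 in plko and 13.2 to 31.5 in the hairpin controls. COL1A1 among them was higher with KLF5 hairpins (1.33 ± 0.39, adjusted p = 0.0291). COL1A2, DCN and PDGFRA were at 0 in plko 1 and also in the hairpin controls shRFP 2 and shLUC 1. Of 8 leukocyte markers 2 were in the table, with PTPRC at 0 to 3.55 and CD68 at 8.82 (plko 1) to 48.8 (RBPJ 2). The part of these markers in the results was not tested.

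Across the 6 groups (KLF5, plko, RBPJ, NFIB, FOXA1 and hairpin controls), 8 of 64 members differed by limma's F test at an adjusted p under 0.05, beside 10.3% of all 10826 genes tested. They were DNAJB1, HSP90AB1, HSPA1B, BAG2, CCT8, HSPA8, DNAJC8 and HSPBP1. With KLF5 hairpins, 2 members were higher and 7 lower than in the hairpin controls, beside 4.42% higher and 6.61% lower of all genes (11% in either direction). With plko, 0 members were higher and 6 lower, beside 1.88% and 5.63% of all genes (7.5%). KLF5 against plko gave 4 higher and 0 lower members, beside 2.27% and 1.16% (3.44%). The members' shares, 14.1%, 9.38% and 6.25%, were not far from the background in these comparisons. The median log2 fold change of the 64 members was 0.02 in KLF5 against hairpin controls (0.05 over all genes), -0.08 in plko against hairpin controls (0.01) and 0.03 in KLF5 against plko (0.03). These comparisons share libraries and are not independent of each other. Without plko 1, 0 of the 6 plko calls remained. The 4 calls of KLF5 against plko were lost without plko 1, without either KLF5 library and with edgeR.

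Members whose groups did not overlap were counted as well. Both KLF5 libraries were above all hairpin controls for 11 members (14.3% of all genes) and below them for 10 (13.4%), or 21 in either direction (27.7%). Both plko libraries were above for 5 members (9.94%) and below for 9 (12.3%), or 14 in all (22.3%). KLF5 and plko libraries did not overlap for 36 members (46.8%), with KLF5 higher for 20 (25.1%) and lower for 16 (21.7%). In RBPJ libraries 5 members were above (4.19%) and 3 below (4.03%), or 8 in all (8.22%). In NFIB libraries 4 were above (4.97%) and 1 below (4.47%), or 5 in all (9.44%). In FOXA1 libraries 7 were above (4.58%) and 3 below (5.83%), or 10 in all (10.4%).

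**Figure D1:**
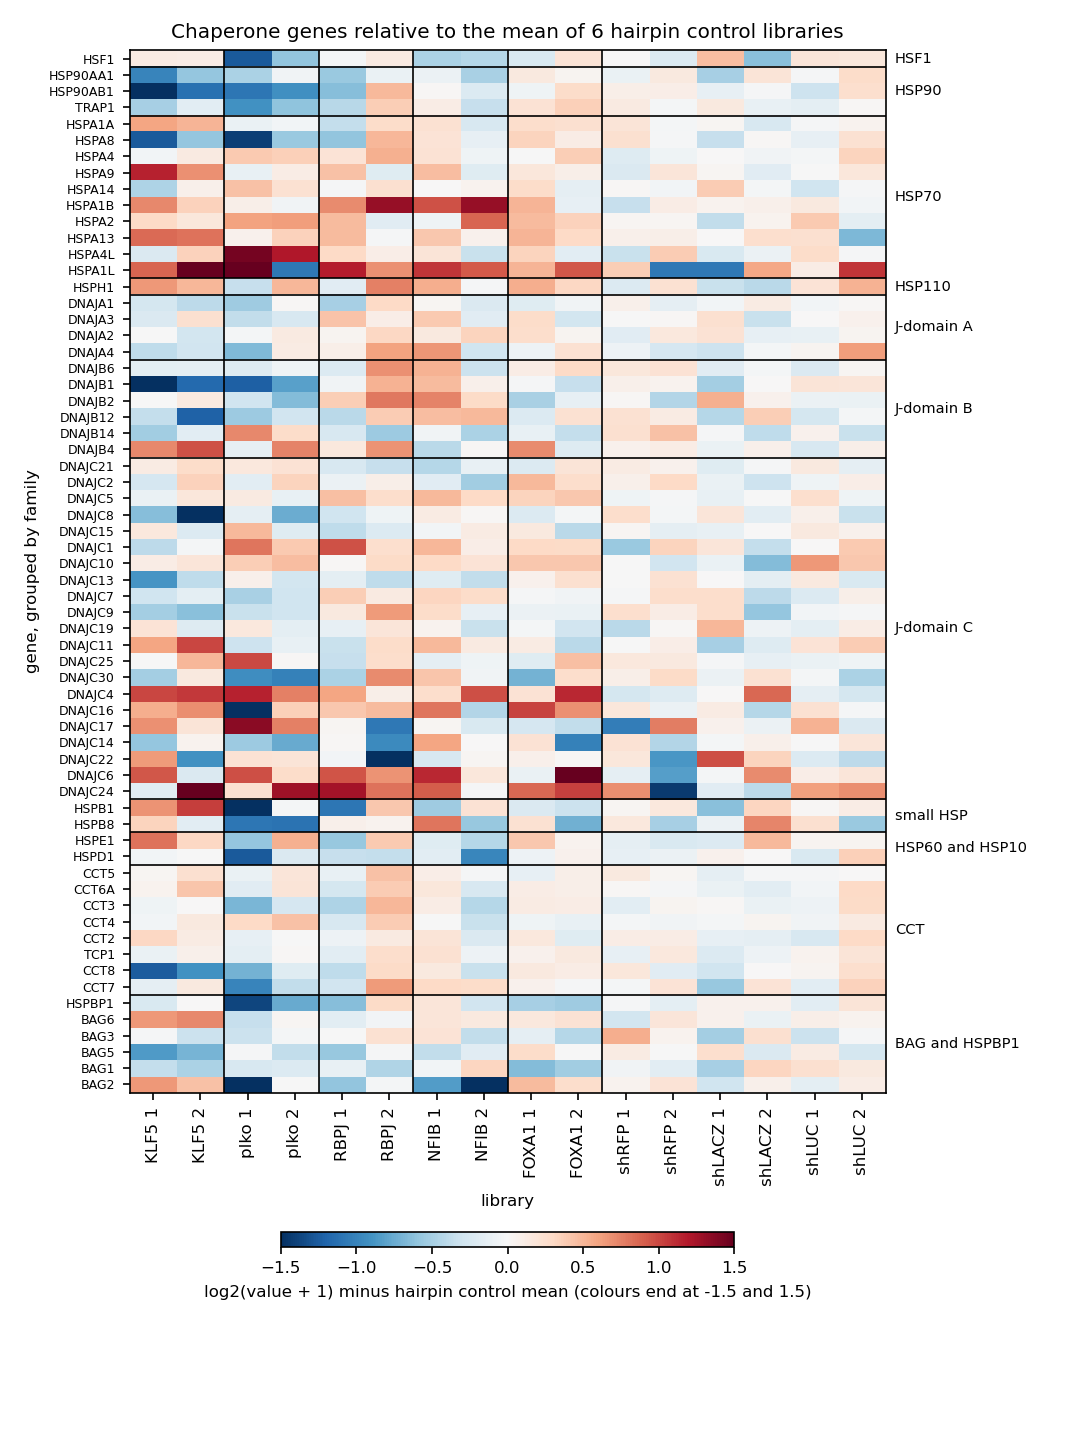
Level of the 64 chaperone genes past the filter (rows, by family) in the 16 libraries (columns), as log2(value + 1) minus the mean of the 6 hairpin control libraries at the right. HSP90AB1 and DNAJB1 are blue in both KLF5 and both plko libraries, and HSPA1B is red in both RBPJ and both NFIB libraries.

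The cytosolic HSP90 genes were lower with KLF5 hairpins. All values below are deposited normalized signal, which is not divided by transcript length, and fold changes are log2 differences of (value + 1) with their SE, adjusted over all genes tested with limma. HSP90AB1, the constitutive cytosolic HSP90, had 252 and 382 in KLF5 libraries, 390.5 and 437 in plko libraries and 668 to 986 (median 850.0) in the 6 hairpin control libraries. No KLF5 or plko library reached the hairpin control range. The log2 fold change was -1.41 ± 0.23 with KLF5 hairpins (adjusted p = 0.000253) and its 95% interval was -1.47 to -0.53 with plko (adjusted p = 0.01). In bulk RNA, less RNA per cell and fewer cells of one kind cannot be told apart. HSP90AA1, the stress-inducible cytosolic HSP90, had 691 and 915 in KLF5 libraries, 991 and 1319.7 in plko libraries and 971 to 1665 (median 1442) in hairpin controls. Both KLF5 libraries were below the hairpin control range and both plko libraries within it. It fell by 0.79 on the log2 scale with KLF5 hairpins (adjusted p = 0.0158), and its log2 difference with plko was -0.26 ± 0.21 (adjusted p = 0.472). KLF5 against plko missed the threshold for both genes, with 95% intervals of the log2 difference of -0.99 to 0.17 for HSP90AB1 and -1.05 to 0.01 for HSP90AA1 (adjusted p = 0.446 for HSP90AB1 and 0.265 for HSP90AA1). The HSP90AA1 call was lost when plko was pooled with the hairpin controls (adjusted p = 0.0576) and without KLF5 1 (adjusted p = 0.282), whereas HSP90AB1 kept its KLF5 call under every alternative tried.

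HSF1, the heat shock factor itself, was lower with plko and did not pass with KLF5 hairpins. It had 71.1 and 70.0 in KLF5 libraries, 26.5 and 42.8 in plko libraries and 41.8 to 90.1 (median 69.5) in hairpin controls. plko 1 was the lowest of all 16 libraries, and plko 2 lay just inside the hairpin control range. The log2 fold change was -0.93 ± 0.25 with plko (adjusted p = 0.0257) and 0.12 ± 0.25 with KLF5 hairpins (adjusted p = 0.823), and KLF5 against plko gave 1.05 ± 0.31 (adjusted p = 0.0586). Without plko 1, the shallowest library, the plko difference was -0.59 (adjusted p = 0.524), and the call was also lost with edgeR (adjusted p = 0.0793) and DESeq2 (adjusted p = 0.0564).

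**Figure D2:**
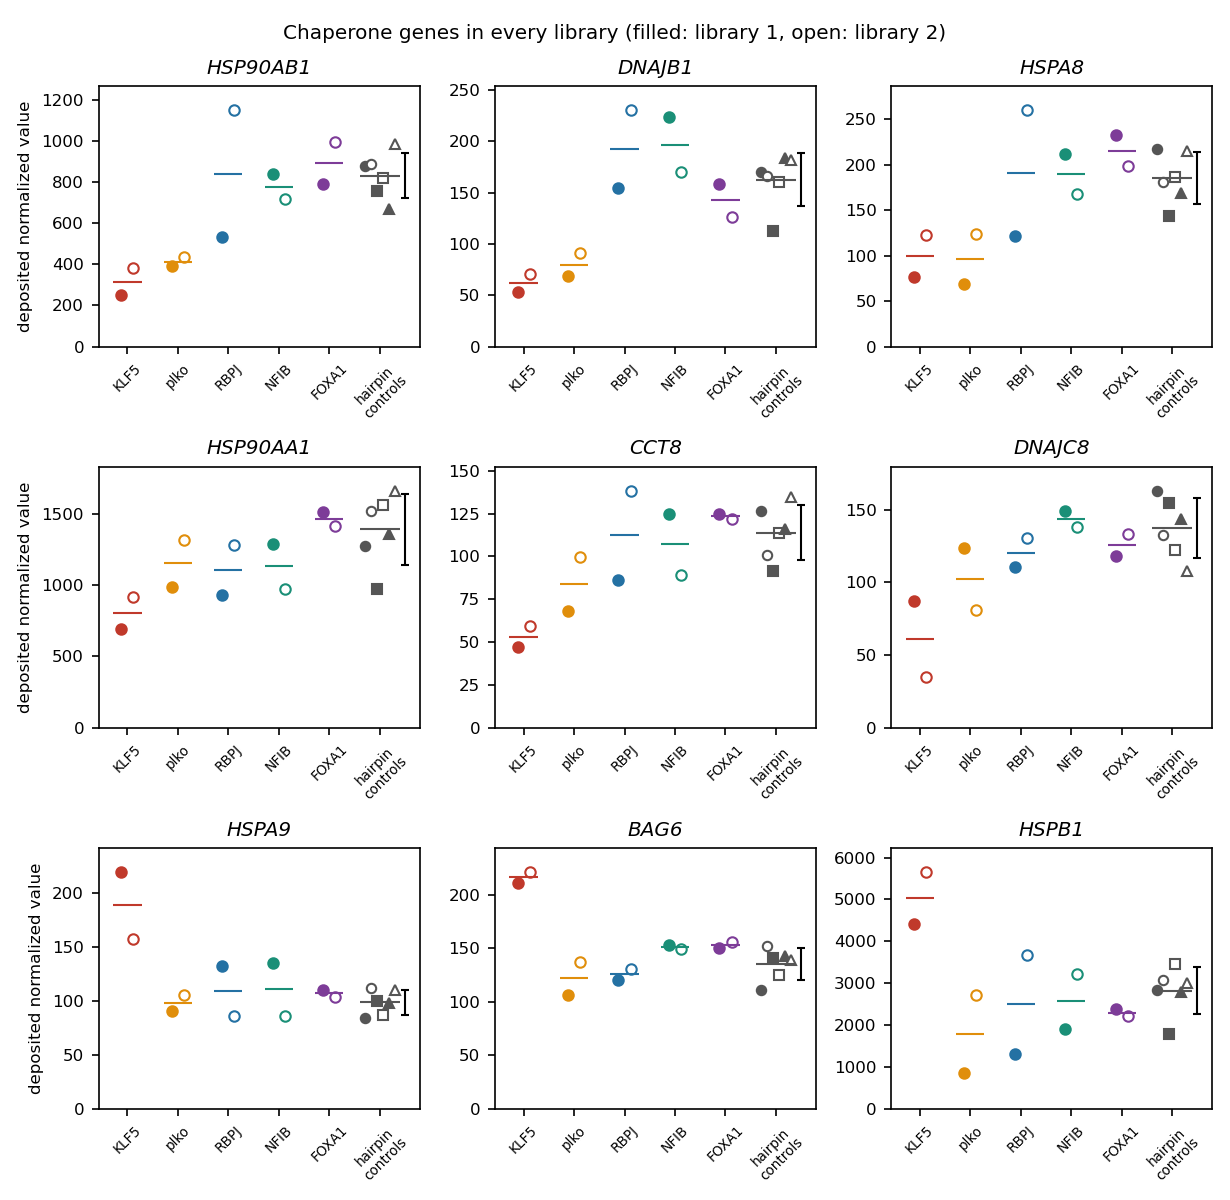
Deposited normalized value of 9 chaperone genes in every library; points are libraries, horizontal lines group means, and the black bar at the right is the SD of the 6 hairpin controls (circles shRFP, squares shLACZ, triangles shLUC). HSP90AB1, DNAJB1 and HSPA8 are below every hairpin control in the KLF5 and plko libraries, whereas HSPA9, BAG6 and HSPB1 are above every hairpin control in both KLF5 libraries.

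Among the cytosolic HSP70 proteins the constitutive HSPA8 was lower with both constructs, while the stress-inducible HSPA1A did not pass. HSPA8 had 76.1 and 123 in KLF5 libraries, 68.4 and 124 in plko libraries and 144 to 218 (median 184) in hairpin controls. All 4 libraries of KLF5 and plko lay below the hairpin control range. It fell by 0.92 with KLF5 hairpins (adjusted p = 0.0221) and by 0.99 with plko (adjusted p = 0.0227), both on the log2 scale. The KLF5 difference was -0.67 with plko pooled into the controls (adjusted p = 0.258) and -0.58 without KLF5 1 (adjusted p = 0.408), and the plko difference -0.56 without plko 1 (adjusted p = 0.569) and -0.89 with edgeR (adjusted p = 0.0802). HSPA1A had 525 and 496 in KLF5 libraries, 327 and 340.2 in plko libraries and 297 to 399 (median 351) in hairpin controls. Both KLF5 libraries exceeded all hairpin controls, at a log2 difference of 0.55 ± 0.18 that missed the threshold (adjusted p = 0.0553). With only these groups in the fit its adjusted p was 0.0136, and leaving out any 1 RBPJ or NFIB library also brought it past the threshold (0.0272 to 0.0440). HSPH1, the HSP110 exchange factor, had 159 and 144 in KLF5 libraries, 79.4 and 144 in plko libraries and 76.0 to 146 (median 102) in hairpin controls. Its groups overlapped, and the log2 difference with KLF5 hairpins was 0.57 ± 0.27 (adjusted p = 0.187). Of the 10 HSP70 genes, 1 was higher and 1 lower in KLF5 libraries, and 0 higher and 1 lower in plko libraries.

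The J-domain partners of HSP70 differed from one another. DNAJB1, the stress-inducible partner of HSPA8 in disaggregation, had 53.3 and 71.2 in KLF5 libraries, 68.4 and 91.1 in plko libraries and 113 to 183 (median 168) in hairpin controls. No library of KLF5 or plko reached the lowest hairpin control, shLACZ 1. It fell by 1.37 with KLF5 hairpins (adjusted p = 0.000209) and by 1.02 with plko (adjusted p = 0.00656) on the log2 scale, and the KLF5 call held under every alternative tried. DNAJC8, a J-domain protein associated with the spliceosome, had 87.4 and 35.0 in KLF5 libraries, 124 and 81.2 in plko libraries and 108 to 163 (median 138) in hairpin controls. The KLF5 libraries were both low but far apart, and KLF5 2 carried the call: the log2 fold change was -1.28 ± 0.25 (adjusted p = 0.00147), and -0.63 without KLF5 2 (adjusted p = 0.200). DNAJA1, a main cytosolic partner of HSPA8, had 287 and 261 in KLF5 libraries, 238 and 349 in plko libraries and 315 to 375 (median 342) in hairpin controls. Its log2 difference with KLF5 hairpins was -0.33 ± 0.19 (adjusted p = 0.309), although both KLF5 libraries lay below the hairpin controls. Among the J-domain genes tested, 0 of 4 of type A, 1 of 6 of type B and 1 of 21 of type C were called in KLF5 libraries, all lower. In plko libraries the count was 1, DNAJB1.

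In the CCT ring, which folds actin and tubulin, 1 of 8 subunits tested was called. CCT8 had 46.9 and 59.5 in KLF5 libraries, 68.4 and 99.8 in plko libraries and 91.5 to 135 (median 115) in hairpin controls. KLF5 libraries lay below all others, while plko 2 lay within the hairpin control range. The log2 fold change was -1.08 ± 0.22 with KLF5 hairpins (adjusted p = 0.00209), and without KLF5 1 it was -0.91 (adjusted p = 0.0905). With plko it was -0.45 ± 0.22 (adjusted p = 0.228). The other 7 subunits tested did not pass in either comparison. TCP1, for example, had 159.9 and 181 in KLF5 libraries, 154 and 173 in plko libraries and 148 to 195 (median 169.7) in hairpin controls, and its log2 difference with KLF5 hairpins was -0.01 ± 0.18 (adjusted p = 0.987). Median log2 differences of the 8 subunits tested were 0.03 with KLF5 hairpins and -0.06 with plko.

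Among the mitochondrial chaperones 1 was higher with KLF5 hairpins and another lower with plko. HSPA9, the mitochondrial HSP70 that pulls proteins through the inner membrane, had 219.7 and 158 in KLF5 libraries, 90.5 and 105 in plko libraries and 84.1 to 111 (median 98.8) in hairpin controls. Both KLF5 libraries were above all others, at a log2 fold change of 0.92 ± 0.21 against hairpin controls (adjusted p = 0.00592) and 0.92 ± 0.26 against plko (adjusted p = 0.0499). Without KLF5 1 the first of these was 0.68 (adjusted p = 0.201), and the second, close to the threshold, was lost under most alternatives. HSPD1, the HSP60 ring, had 68.2 and 70.0 in KLF5 libraries, 28.7 and 60.1 in plko libraries and 59.9 to 90.5 (median 68.3) in hairpin controls, and HSPE1, its HSP10 lid, had 215 and 152 in KLF5 libraries, 81.6 and 177 in plko libraries and 104 to 171 (median 118) in hairpin controls. Neither passed: HSPD1 differed by -0.74 ± 0.25 in plko libraries (adjusted p = 0.0713) and HSPE1 by 0.56 ± 0.27 in KLF5 libraries (adjusted p = 0.194). TRAP1, the mitochondrial HSP90, had 82.5 and 105 in KLF5 libraries, 61.8 and 76.8 in plko libraries and 106 to 129.5 (median 117) in hairpin controls. It fell by 0.76 on the log2 scale with plko (adjusted p = 0.0287), a call lost without plko 1 (adjusted p = 0.403), with edgeR (adjusted p = 0.0812), with DESeq2 (adjusted p = 0.0589) and without shRFP 1 (adjusted p = 0.0547). With KLF5 hairpins its log2 difference was -0.33 ± 0.21 (adjusted p = 0.351).

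Small heat shock proteins were represented by HSPB1 and HSPB8. HSPB1, known as HSP27, had 4404 and 5663 in KLF5 libraries, 838 and 2715 in plko libraries and 1785 to 3455 (median 2911) in hairpin controls. KLF5 libraries were above every other library, but the plko libraries lay far apart. It was higher in KLF5 than in plko by 1.73 ± 0.43 on the log2 scale (adjusted p = 0.0302), a difference of 0.88 without plko 1 (adjusted p = 0.541). That call was also lost with edgeR (adjusted p = 0.0813), with DESeq2 (adjusted p = 0.0691) and without either KLF5 library (adjusted p = 0.102 without KLF5 1 and 0.184 without KLF5 2). Against the hairpin controls the log2 difference was 0.85 ± 0.35 (adjusted p = 0.125).

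BAG proteins and HSPBP1 went in different directions. BAG6, a chaperone for tail-anchored proteins, had 211 and 222 in KLF5 libraries, 106 and 138 in plko libraries and 110.5 to 152 (median 140.1) in hairpin controls. It was above the hairpin controls in both KLF5 libraries, at a log2 fold change of 0.68 ± 0.17 (adjusted p = 0.0123), and above plko at 0.84 ± 0.21 (adjusted p = 0.0343). The first call was lost without KLF5 1 (adjusted p = 0.0988) or KLF5 2 (adjusted p = 0.129). BAG5 had 35.5 and 39.7 in KLF5 libraries, 64.0 and 50.2 in plko libraries and 53.7 to 77.4 (median 67.6) in hairpin controls. It fell by 0.77 on the log2 scale with KLF5 hairpins (adjusted p = 0.0215), and the call was lost with plko pooled into the controls (adjusted p = 0.0529) or without KLF5 1 (adjusted p = 0.209) or KLF5 2 (adjusted p = 0.1). HSPBP1 had 158 and 186 in KLF5 libraries, 70.6 and 109 in plko libraries and 165 to 212 (median 188) in hairpin controls. Both plko libraries were below every other library. It fell by 1.07 on the log2 scale with plko (adjusted p = 0.00508), the difference being -0.76 without plko 1 (adjusted p = 0.242). Against plko, HSPBP1 was higher in KLF5 libraries by 0.96 ± 0.27 (adjusted p = 0.0492), close to the threshold and lost under most alternatives. BAG3, the stress-inducible partner of small heat shock proteins in autophagy, had 73.9 and 59.5 in KLF5 libraries, 59.6 and 73.1 in plko libraries and 52.1 to 109.6 (median 76.0) in hairpin controls, with a log2 difference of -0.17 ± 0.24 in KLF5 libraries (adjusted p = 0.718). BAG1 had 40.5 and 37.3 in KLF5 libraries, 44.1 and 45.2 in plko libraries and 36.6 to 65.3 (median 54.0) in hairpin controls (log2 difference -0.41 ± 0.23 with KLF5 hairpins, adjusted p = 0.279).

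**Figure D3:**
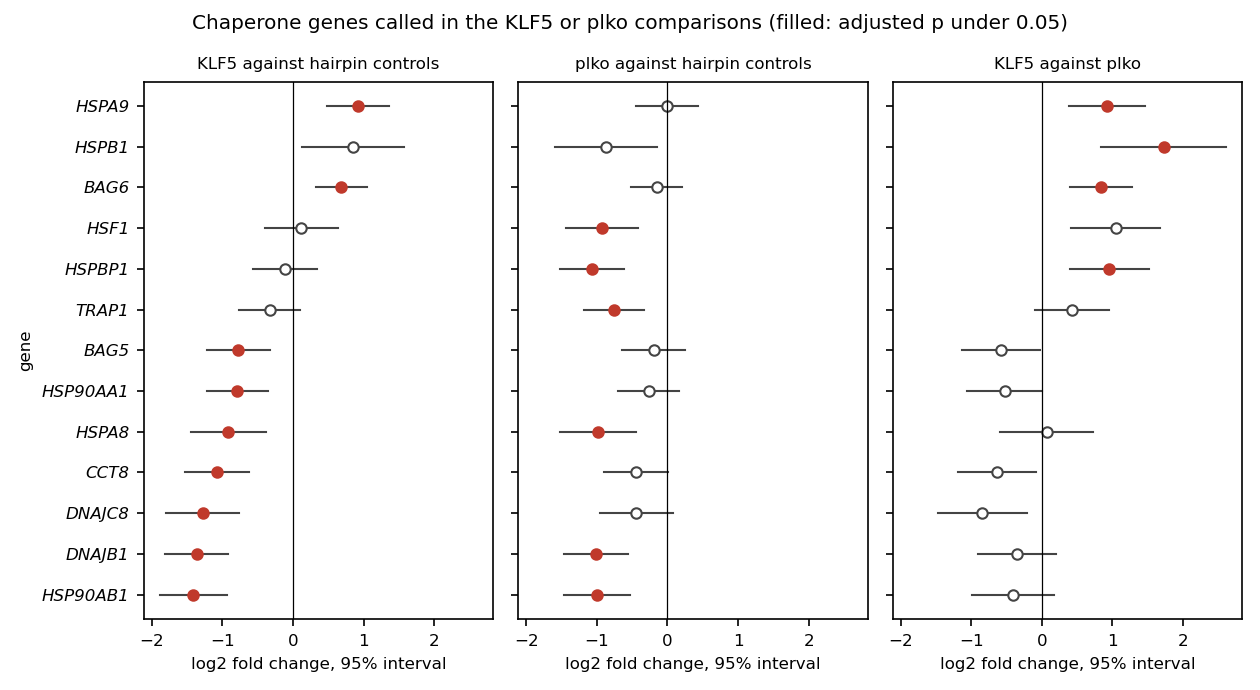
Log2 fold change with its 95% interval for the 13 chaperone genes called in any of the 3 comparisons; filled points passed an adjusted p under 0.05. DNAJB1 and HSP90AB1 have the lowest values in KLF5 against hairpin controls, and HSPA9, HSPB1, BAG6 and HSPBP1 are called higher in KLF5 against plko.

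In RBPJ, NFIB and FOXA1 libraries 0 of 64 members passed against the hairpin controls (0.0277%, 0.00924% and 0.00924% of all genes). The targeted RNA itself did not pass in these comparisons. Its log2 difference was -1.26 ± 0.33 for RBPJ (adjusted p = 0.220), -1.72 ± 0.36 for NFIB (adjusted p = 0.164) and -1.32 ± 0.31 for FOXA1 (adjusted p = 0.178). A member that did not pass here is therefore not shown to be unchanged. By limma 3, 4 and 3 members had an unadjusted p under 0.05. The share of all genes under that unadjusted threshold was not taken, here or among the 3 targets. These unadjusted counts therefore show nothing particular to chaperones. DESeq2 on recovered reads gave 1 member each for RBPJ and NFIB, HSPA1B, and 0 for FOXA1, and edgeR gave 0 for each. No member differed among the 3 targets (0.148% of all genes), where 4 had an unadjusted p under 0.05, DESeq2 gave 1 member, BAG2, and edgeR 0. Median log2 differences of the members were 0.06 for RBPJ, 0.06 for NFIB and 0.10 for FOXA1, against 0.03, 0.04 and -0.00072 over all genes. BAG2, an exchange factor that inhibits the ubiquitin ligase CHIP, had 23.9 and 11.0 in NFIB libraries, 28.6 and 42.7 in RBPJ libraries, 60.6 and 52.6 in FOXA1 libraries and 35.2 to 50.3 (median 45.5) in hairpin controls. It was below the hairpin control range in both NFIB libraries and above it in both FOXA1 libraries, and the NFIB difference of -1.36 ± 0.32 did not pass (adjusted p = 0.419). BAG2 was also above that range in both KLF5 libraries (69.0 and 59.5). In plko libraries it had 13.2 and 43.4, with plko 1 below the range.

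**Figure D4:**
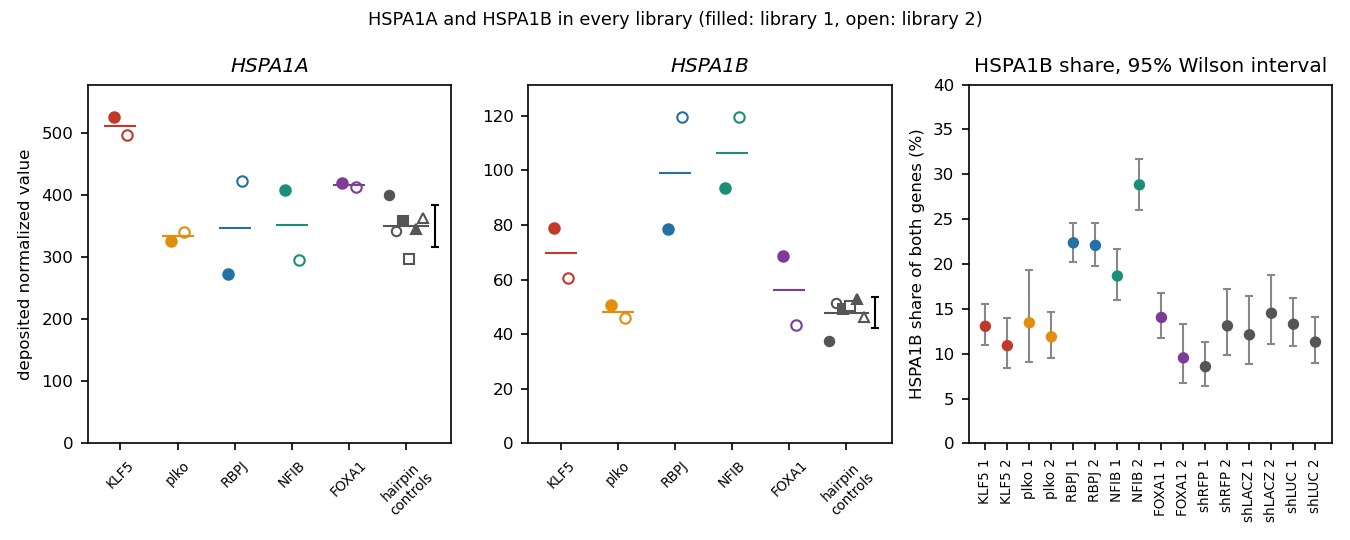
HSPA1A and HSPA1B values by library, and the share of HSPA1B in the reads of both genes with 95% Wilson intervals. Shares were 18.7% to 28.8% in the RBPJ and NFIB libraries and 8.56% to 14.5% in the hairpin controls.

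HSPA1B, the near-copy of HSPA1A, had 78.6 and 119 in RBPJ libraries, 93.6 and 119 in NFIB libraries and 37.4 to 52.9 (median 49.8) in hairpin controls. All 4 RBPJ and NFIB libraries, including the library labelled RBPJ 1, were above every hairpin control. Log2 differences were 1.01 ± 0.23 for RBPJ (adjusted p = 0.124) and 1.13 ± 0.23 for NFIB (adjusted p = 0.156), and neither passed, although the F test over 6 groups did (adjusted p = 0.00506). HSPA1A, by contrast, was at 273 and 422 in RBPJ libraries, 408 and 295 in NFIB libraries and 297 to 399 (median 351) in hairpin controls. The coding sequences are 99.79% identical and the bases after the stop codon 47.81% identical, by alignment of GENCODE transcripts, so most reads from the coding sequence fit both genes and reads from beyond the stop can be told apart. How reads that match both genes were counted is not stated, and the same doubt holds for HSP90AA1, HSP90AB1, HSPA8, HSPB1, HSPD1 and HSPE1, which have processed pseudogenes. As a check chosen after the values were seen, HSPA1B's share of the reads of both genes was 22.4% and 22.1% in RBPJ libraries, 18.7% and 28.8% in NFIB libraries, 13.1% and 10.9% in KLF5 libraries, 13.5% and 11.9% in plko libraries, 14.0% and 9.54% in FOXA1 libraries and 8.56% to 14.5% in hairpin controls (95% Wilson interval in RBPJ 1, 20.3% to 24.6%). Shares in the RBPJ and NFIB libraries were above all others. Exact 2-sided permutation over libraries gave p = 0.0714 for RBPJ and for NFIB, the smallest the 28 arrangements allow, and 0.179 after adjustment over 5 tests.

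Levels of the main members in the other targets lay on both sides of the hairpin controls. HSP90AB1 had 532 and 1155 in RBPJ libraries, 839 and 718 in NFIB libraries and 794 and 997 in FOXA1 libraries. HSP90AA1 had 934 and 1285 in RBPJ libraries, 1290.2 and 977 in NFIB libraries and 1517 and 1418 in FOXA1 libraries. HSF1 had 63.4 and 71.6 in RBPJ libraries, 46.5 and 48.1 in NFIB libraries and 55.3 and 75.1 in FOXA1 libraries. HSP90AB1 in RBPJ 1 was below and in RBPJ 2 above every hairpin control, and HSF1 lay within the hairpin control range in all 6 libraries. HSPA8 had 122 and 260.3 in RBPJ libraries, 211 and 168 in NFIB libraries and 232 and 198 in FOXA1 libraries. HSPA9 had 133 and 85.8 in RBPJ libraries, 135 and 86.1 in NFIB libraries and 110.0 and 104 in FOXA1 libraries. HSPH1 had 89.8 and 172 in RBPJ libraries, 148 and 100.4 in NFIB libraries and 148 and 126 in FOXA1 libraries. For these HSP70 and HSP110 genes, RBPJ 2 was above the hairpin controls for HSPA8 and HSPH1 and not for HSPA9. DNAJB1 had 154 and 231 in RBPJ libraries, 223 and 170.0 in NFIB libraries and 159 and 126 in FOXA1 libraries. DNAJA1 had 244 and 424 in RBPJ libraries, 352 and 297 in NFIB libraries and 304 and 332 in FOXA1 libraries. TCP1 had 153 and 205 in RBPJ libraries, 200.2 and 162 in NFIB libraries and 179 and 189 in FOXA1 libraries. In these 6 libraries DNAJB1 was within or above the hairpin control range, whose low end is set by shLACZ 1 alone (112.6, the next being 160.6). RBPJ 1 and both FOXA1 libraries were below the other 5 hairpin controls. HSPD1 had 54.9 and 54.5 in RBPJ libraries, 62.9 and 35.0 in NFIB libraries and 66.5 and 73.6 in FOXA1 libraries. HSPE1 had 82.3 and 161 in RBPJ libraries, 108 and 90.7 in NFIB libraries and 161 and 126 in FOXA1 libraries. TRAP1 had 87.3 and 152 in RBPJ libraries, 127 and 92.0 in NFIB libraries and 136 and 150.2 in FOXA1 libraries. Both RBPJ libraries were below the hairpin controls for HSPD1, and both FOXA1 libraries above them for TRAP1. HSPB1 had 1306 and 3673 in RBPJ libraries, 1908 and 3214 in NFIB libraries and 2378 and 2205 in FOXA1 libraries. BAG1 had 48.0 and 37.9 in RBPJ libraries, 50.6 and 65.4 in NFIB libraries and 32.9 and 36.0 in FOXA1 libraries. BAG3 had 74.8 and 88.2 in RBPJ libraries, 86.8 and 57.8 in NFIB libraries and 67.8 and 55.6 in FOXA1 libraries. Both FOXA1 libraries were below the hairpin controls for BAG1, and its difference of -0.58 ± 0.23 did not pass (adjusted p = 0.609).

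Other members of smallest p did not pass in any of these comparisons. In RBPJ libraries DNAJC1 differed by 0.60 ± 0.25 and DNAJB2 by 0.58 ± 0.26, both higher (adjusted p = 0.768 and 0.785), and DNAJC22 by -0.92 ± 0.51 and DNAJC21 by -0.29 ± 0.18. In NFIB libraries HSPD1 differed by -0.57 ± 0.25 and DNAJC5 by 0.39 ± 0.18 (adjusted p = 0.742 for both). In FOXA1 libraries HSPBP1 differed by -0.51 ± 0.22, DNAJC16 by 0.85 ± 0.43 and DNAJC2 by 0.38 ± 0.21. In plko libraries the higher members of smallest p were HSPA4L at 1.32 ± 0.45 (adjusted p = 0.0739), DNAJC4 at 0.95 ± 0.37 and DNAJC17 at 1.05 ± 0.44, all with values under 25. In KLF5 against plko the lower ones were DNAJC8 at -0.84 ± 0.31, DNAJC1 at -0.80 ± 0.30 and CCT8 at -0.63 ± 0.27.

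Libraries of a target also differed from each other. RBPJ 2 exceeded RBPJ 1 in 43 of 64 members (49.1% of all genes), and 26 members were over 1.5-fold apart (34.4% of all genes). NFIB 2 exceeded NFIB 1 in 15 of 64 members (47.9% of all genes), and 13 were over 1.5-fold apart (32.0% of all genes). Other pairs were uneven too. Library 2 exceeded library 1 in 42 members for plko (48.6% of all genes), 41 for KLF5 (49.5%) and 40 for the control shLUC (49.5%). For FOXA1 the count was 24 (49.3%), for shRFP 32 (49.8%) and for shLACZ 34 (49.3%). Of the 64 members, 29 were above the hairpin control range in RBPJ 2 (20.6% of all genes), 25 in NFIB 1 (21.2%) and 13 in RBPJ 1 (16.6%). Below that range were 20 in RBPJ 1 (14.7% of all genes), 18 in NFIB 2 (14.1%) and 24 in plko 1 (27.4%). In FOXA1 libraries 17 and 16 members were above the range (15.1% and 16.1% of all genes) and 8 and 6 below it (16.1% and 17.7%). Each hairpin control library was compared with the other 5 in the same way. There 7 (shRFP 1, 13.6% of all genes) to 18 members (shLUC 2, 14.1%) were above. Below were 6 (shLUC 2, 15.8%) to 17 (shLACZ 1, 19.7%), so such counts also occurred among controls. Between the RBPJ libraries, HSPA8 (122 and 260.3) and HSP90AB1 (532 and 1155) were below every hairpin control in RBPJ 1 and above every one in RBPJ 2, whereas both NFIB libraries lay within the range for these genes. Depth and levels of the targeted RNA differed between the same RBPJ and NFIB libraries, and their part in it was not tested. In 50 members with a mean value of at least 20, RBPJ 2 was the highest library for 17 and plko 1 the lowest for 14. The same count was not made over all genes, so it cannot be called particular to chaperones, and plko 1 was the shallowest library.

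**Figure D5:**
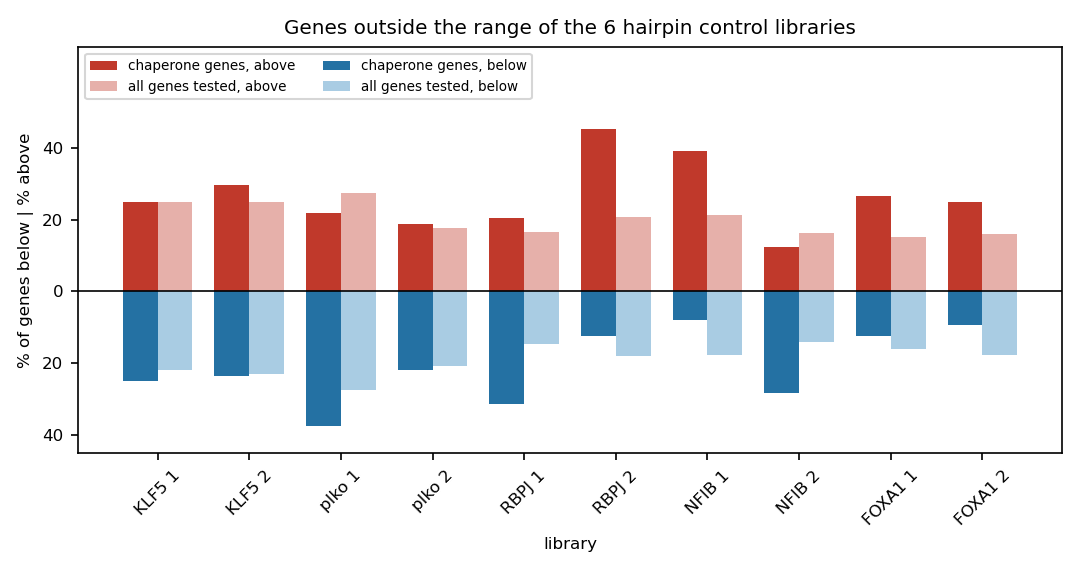
Percent of the 64 chaperone genes (dark bars) and of all 10826 genes tested (pale bars) above (upward) or below (downward) the range of the 6 hairpin control libraries, by library. RBPJ 2 and NFIB 1 have the tallest upward bars for chaperone genes, 45.3% and 39.1%. Hairpin control libraries are not drawn.

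Genes that work with these chaperones were counted in 6 further lists. Over the lists together (82 genes tested), 4 were higher and 11 lower with KLF5 hairpins (4.9% and 13.4%, beside 4.42% and 6.61% of all genes), and 0 higher and 9 lower with plko (0% and 11%, beside 1.88% and 5.63%). Of 17 HSP90 and HSP70 co-chaperones tested, 1 was higher and 1 lower with KLF5 hairpins and 0 higher and 3 lower with plko. AHSA1, the activator of HSP90's ATPase, had 47.6 and 66.5 in KLF5 libraries, 52.9 and 52.0 in plko libraries and 108 to 184 (median 153) in hairpin controls. It fell by 1.38 and 1.48 on the log2 scale (adjusted p = 0.00225 in KLF5 libraries and 0.00276 in plko libraries), and CDC37, the HSP90 partner that loads kinases, fell by 1.30 in plko (adjusted p = 0.00508). PPP5C, an HSP90-bound phosphatase, was higher in KLF5 libraries (log2 fold change 0.67 ± 0.21). Of 12 prefoldin and CCT co-factor genes tested, 3 were lower with KLF5 hairpins (PFDN1, PFDN6 and PFDN5, at -1.55 ± 0.46 for PFDN6) and 1 with plko, PFDN6. Among 12 heat shock factor and regulator genes, UBB, which encodes polyubiquitin, had 508 and 457 in KLF5 libraries, 174 and 291 in plko libraries and 224 to 290.2 (median 249) in hairpin controls, at a log2 fold change of 0.94 ± 0.19 against hairpin controls (adjusted p = 0.00191). VCP, the segregase of ubiquitinated proteins, fell by 0.64 with KLF5 hairpins and by 0.86 with plko. EP300, an acetyltransferase that acts on HSF1, was higher in KLF5 libraries at 0.81 ± 0.23. HSF4, another heat shock factor, had 15.6 and 25.7 in KLF5 libraries, 0.00 and 4.96 in plko libraries and 5.63 to 10.7 in hairpin controls. HSF4 was called only in KLF5 against plko (log2 fold change 3.11 ± 0.69, adjusted p = 0.0164), and its 0.00 was in plko 1, the shallowest library. In the 14 core proteasome genes 3 were lower with KLF5 hairpins (PSMB1, PSMB5 and PSMB7) and 2 with plko (PSMB4 and PSMB5). The list as a whole was not lower with KLF5 hairpins. Its median log2 difference was 0.03 with KLF5 hairpins and -0.28 with plko. Its summed value was 5047 to 5275 in KLF5, 3510 to 4784 in plko and 4481 to 5005 in hairpin controls. Among 15 endoplasmic reticulum chaperones CALR and SDF2L1 were lower with each construct and PDIA4 was higher with KLF5 hairpins (0.78 ± 0.20). Of 12 mitochondrial quality-control genes, 1 (CLPP) was lower with KLF5 hairpins. No list had a called gene in RBPJ, NFIB or FOXA1 libraries.

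Precision differed between members, since the reads behind a value did. Mean deposited values over the 16 libraries, which are not scaled by transcript length and rank nothing, were 2827 for HSPB1 and 10.3 for HSPB8 among the small heat shock proteins, 1907 for CCT5 and 2.18 for CCT6B in the CCT ring, and 376 for HSPA1A and 3.14 for HSPA1L among the HSP70 proteins. For the J-domain proteins they were 322 for DNAJA1 and 47.5 for DNAJA4, 192 for DNAJB6 and 2.32 for DNAJB7, and 157 for DNAJC21 and 2.09 for DNAJC27. BAG4, CCT6B, DNAJB5, DNAJB7 and DNAJC27 did not pass the filter on low values and were not tested.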

How the data were processed

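The authors deposited 1 table of normalized signal for 11282 genes, named as DESeq2-normalized, on genome build GRCh37 per the submitters' processing notes. The sources used here do not name the aligner, the annotation release or the use of molecular identifiers. Dividing by the step of 1 read gave whole numbers for 100% of values (tolerance 0.05 of a read), so whole reads were recovered; count tests on them were alternatives and called 1171 genes (edgeR 4.0.16) and 1093 genes (DESeq2 1.42.0) in KLF5 against hairpin controls. A further 2 columns without a matching sample were left out. The main test was limma 3.58.1 (R 4.3.3) with a mean-variance trend on log2(deposited signal + 1), over 16 libraries in 6 groups, for genes at 5 or more in at least 2 libraries (10826 kept, 456 removed), 2-sided, with Benjamini-Hochberg adjustment over all genes tested and a threshold of 0.05. It was also run on simulated counts with the same dispersion for every gene, which lack the spread between these hairpins. Symbols came from a table that matched 11259 of 11282 identifiers. Members and lists were chosen with earlier results of these data known. Named genes were all called members per comparison (10 at most) with the 3 higher and 3 lower of smallest p, a set list of members by level, and up to 3 called genes of each other list. Wilson intervals cover counting error only. Sequences were searched with Python 3.11.15, and coding and promoter sequences aligned with Biopython 1.88.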

Additional observations from a re-analysis of the deposited data

Results flagged for a closer look

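In the 6 hairpin control libraries, 28 members named for their p-values were examined for a library far from the others. No further filter on depth was set, and chance alone gives about 1 in 20. DNAJB1 was at 112.6 in shLACZ 1, the nearest other hairpin control being at 160.6, so the low end of its hairpin control range rests on that library. DNAJC4, a J-domain protein, was at 16.1 in shLACZ 2, with the nearest other at 8.45. DNAJC5, the cysteine string protein of secretory vesicles, was at 132.3 in shLUC 1, with the nearest other at 110.3.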

How the results depend on the processing

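Members called in plko against hairpin controls numbered 6, against 3 with edgeR and between 0 (without plko 1) and 11 (without plko 2) leaving out 1 library. In KLF5 against hairpin controls 9 became 3 to 10 leaving out 1 library (3 without KLF5 1). In KLF5 against plko 4 became 2 with a pseudocount of 0.5, with equal totals or with DESeq2, 0 with edgeR, 1 with only its groups in the fit, and 0 to 9 leaving out 1 library (0 without plko 1 or KLF5 2, 1 without KLF5 1, 9 without plko 2). In RBPJ 0 became 1 with DESeq2 and 0 to 1 leaving out 1 library (1 without RBPJ 1, HSPA1B), in NFIB 1 with DESeq2 or with only its groups in the fit, and FOXA1 stayed at 0. Across 6 groups 8 became 5 to 13 leaving out 1 library, and among RBPJ, NFIB and FOXA1 0 became 1 with DESeq2 and 0 to 1 leaving out 1 library. Where a group is left with 1 library, that library is assumed to vary like the others; the cause of these shifts was not tested. The labels do not say that replicate numbers pair samples. Correlations of deviations between constructs (-0.19 to 0.22) cannot settle it, since each library carries its own construct number. The replicate block gave 7, 10 and 4 members in plko, KLF5 and KLF5 against plko, against 6, 9 and 4, adding HSPB1, lower with plko and higher with KLF5 hairpins. For 44 values of single members, 1082 alternatives kept the direction, 66 lost and 11 gained the call, and 2 of 19 called values kept it under every alternative, DNAJB1 and HSP90AB1 in KLF5. Counts over all genes moved by over 1.5 times in plko (812; edgeR 382, DESeq2 496, 131 to 1115 leaving out 1 library), in KLF5 (1194; 581 with plko pooled into the controls, 365 to 1320) and in KLF5 against plko (372; edgeR 146, 117 with only its groups in the fit, 0 to 958). For RBPJ, NFIB and FOXA1 they were 3, 1 and 1, and at most 205 (without RBPJ 1), 5 and 30 under the alternatives. Across 6 groups 1112 became 452 to 1855 leaving out 1 library, and among the 3 targets 16 became 2 to 158.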

Other observations

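A low-abundance HSP70 gene, HSPA1L, was at 13.2 in plko 1 and at 0 in plko 2, against 0 to 3.40 in the hairpin controls; at the depth of plko 1 each read is worth 2.21, so its value rests on few reads. SPG7, a subunit of the mitochondrial AAA protease, was higher in KLF5 than in plko by 1.13 ± 0.31 on the log2 scale (adjusted p = 0.0429), with 38.4 and 43.2 in KLF5 libraries and 17.6 and 18.6 in plko libraries.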
